A study of Mus musculus with 6 samples.

Results

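Transcripts of prostaglandin synthesis, reception and breakdown were examined in cultured neonatal rat heart cells. The set was defined as 10 gene symbols, namely Ptgs1, Ptgs2, Ptges, Ptges2, Ptges3, Ptgis, Ptgir, Ptger1, Ptger4 and Hpgd. Of these symbols 9 were matched to the 33682 rows of the deposited gene table, 8 of the 9 were abundant enough to be tested, and Hpgd was not. Ptgis was not matched by symbol. A row with a different symbol carries a description naming rat prostacyclin synthase, the product of Ptgis, and is described apart.

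The study asked how leukotrienes from activated mast cells act on cardiac fibroblasts. RNA was sequenced from 6 samples, each kept in conditioned medium, the supernatant of bone marrow-derived mast cells (BMMCs) treated with TNF-a, an inflammatory cytokine. The BMMCs were wild type (WT) for 3 samples and ALOX5-/- for the other 3, so they lacked the enzyme that starts leukotriene synthesis. These groups are called WT medium and Alox5KO medium. The labels give WT as the genotype of all 6 samples, and TNF-a was given to the mast cells of both groups. The sources used here do not give the dose of TNF-a, the times of treatment or an age beyond neonatal. No sample without mast cell medium was analysed here, and leukotrienes and other contents of the media were not measured here, so they cannot be told apart. Nothing in the labels says that replicates were grown separately, and the spread that the p-values measure, that between these samples, may be technical alone.

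Reads recovered from the deposited values ranged from 13284088 to 15766187 per library. The cell type label is Neonatal Rat Cardiomyocytes, while fibroblasts (NRCFs) are named in the design text. Of 9 matched cardiomyocyte markers, the summed level was 27.8 to 50.7 FPKM with WT medium and 91.3 to 114 with Alox5KO medium. FPKM is the number of fragments scaled to gene length and library size. The summed level of 10 fibroblast markers was 8801 to 9341 and 8031 to 8913 FPKM. Of 6 cardiomyocyte markers tested 3 were higher with Alox5KO medium (Myh7, Tnnt2 and Pln), and of 10 fibroblast markers 2 were higher (Col3a1 and Tcf21) and 3 lower (Pdgfra, Dcn and Lum). The most abundant genes of these lists were Tnnt2, at 23.0 ± 6.92 and 79.9 ± 10.6 FPKM (SD, n = 3 per group), and Col1a1, at 3290 ± 577 and 3741 ± 483 FPKM (SD, n = 3 per group). Myl2, a ventricular myosin light chain, was listed at 0 in all libraries. On the log2(FPKM + 1) scale, libraries of 1 group correlated at 0.977 to 0.986 (Pearson) across genes, and libraries of different groups at 0.928 to 0.943.

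Prostaglandins are short-lived lipid signals made from arachidonic acid, a fatty acid that phospholipases release from membranes. A cyclooxygenase, encoded by Ptgs1 or Ptgs2, converts it to prostaglandin H2, which a terminal synthase turns into prostaglandin E2 or prostacyclin. The products leave the cell, bind G protein-coupled receptors and are inactivated by oxidation after uptake. In the heart, prostaglandin E2 and prostacyclin are known for effects on vascular tone, inflammation and fibroblast growth.

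Among the 8 tested genes, Ptgs2, Ptges and Ptgir were lower and Ptger1 was higher in cells given Alox5KO medium. These are 3 lower and 1 higher call by limma with Benjamini-Hochberg adjustment over all genes tested. Among all 12341 genes tested, 10.6% were called lower and 10% higher, or 20.7% together. The remaining 4, Ptgs1, Ptges2, Ptges3 and Ptger4, did not pass. The median log2 fold change of the 8 was -0.18, against -0.00082 over all tested genes. Every log2 fold change is a difference in mean log2(FPKM + 1), negative where Alox5KO medium gave the lower level, and for genes at low levels it is smaller than the change in FPKM itself. In these bulk samples, fewer cells of a type and less RNA per cell cannot be told apart.

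**Figure D1:**
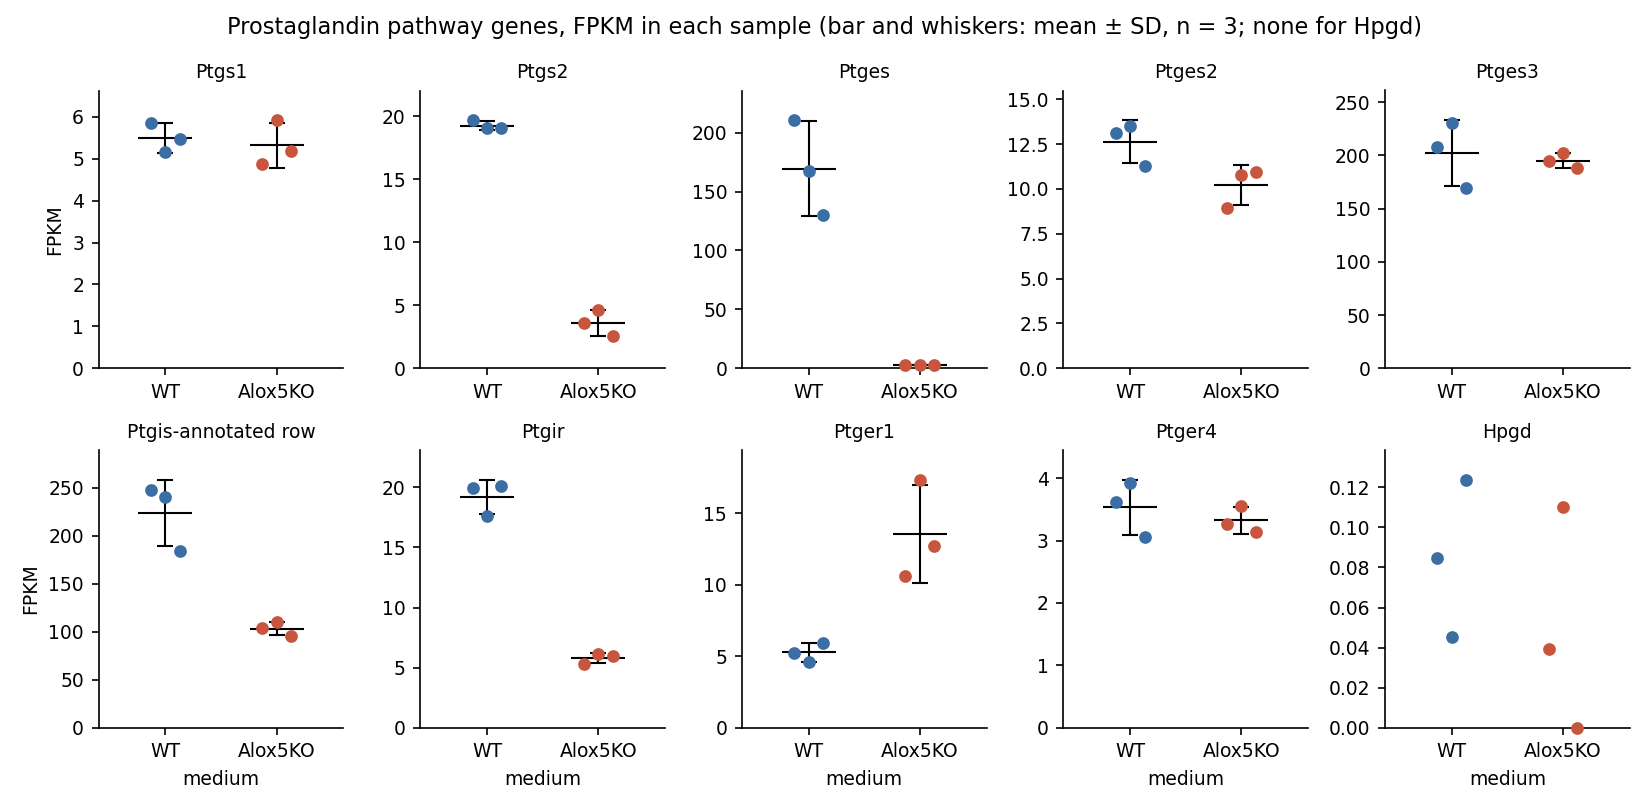
FPKM of each gene (vertical axes from 0, scaled per panel) in the 3 WT-medium samples (blue) and the 3 Alox5KO-medium samples (red), with the mean and SD as black bars and none for Hpgd. Ptges falls from between 130 and 211 FPKM to between 2.63 and 3.05, while the points of Ptgs1, Ptges3 and Ptger4 overlap between groups.

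The upstream sequences of Ptges, Ptgs2 and Ptgir are shown because these genes were lower together. They are the mouse sequences of RefSeq (build GRCm38.p6), since no rat sequence was used here, so they stand for the orthologs of the measured genes. Each runs 5′ to 3′ on the strand of the gene, from 250 bases before the annotated start to 30 bases after it. Capitals mark matches, on either strand, to any of 8 motifs, listed after the sequences.
Ptges (chr2:30903268-30903547, minus strand): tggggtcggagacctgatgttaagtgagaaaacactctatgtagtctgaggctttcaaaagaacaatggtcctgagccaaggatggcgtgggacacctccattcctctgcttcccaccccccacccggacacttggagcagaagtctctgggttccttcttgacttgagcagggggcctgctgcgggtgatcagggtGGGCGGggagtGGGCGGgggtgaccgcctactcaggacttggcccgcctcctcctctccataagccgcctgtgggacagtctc
Ptgs2 (chr1:150099781-150100060, plus strand): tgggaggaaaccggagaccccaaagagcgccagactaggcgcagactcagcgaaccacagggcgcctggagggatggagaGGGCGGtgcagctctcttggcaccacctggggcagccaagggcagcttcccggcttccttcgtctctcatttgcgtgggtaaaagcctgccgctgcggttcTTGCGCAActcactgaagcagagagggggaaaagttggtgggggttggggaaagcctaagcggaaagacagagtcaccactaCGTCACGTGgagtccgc
Ptgir (chr7:16906240-16906519, plus strand): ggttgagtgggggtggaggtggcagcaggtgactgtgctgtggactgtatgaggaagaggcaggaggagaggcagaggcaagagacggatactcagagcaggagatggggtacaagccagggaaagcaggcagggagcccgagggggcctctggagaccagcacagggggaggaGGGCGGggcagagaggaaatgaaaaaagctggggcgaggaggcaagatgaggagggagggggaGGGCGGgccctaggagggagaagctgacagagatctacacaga

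The motifs were the GC box GGGCGG, the EGR motif GCGNGGGCG, the CRE core TGACG, the E-box CACGTG, the C/EBP motif TTGCNNAA, the AP-1 motif TGANTCA, the TATA box TATAAA and the NF-kB motif. The GC box and the EGR motif can overlap. Ptges and Ptgir each held 2 GC boxes, and Ptgs2 held 1. Of the genes that did not pass the test, Ptges3 and Ptger4 each held 4, and Ptgs1 and Ptges2 held 0. The window of Hpgd, which was not tested, held 1. Of 32851 windows of this length in the RefSeq table, 34.7% held a GC box, and so did 6 of the 8 member genes found there. The window of Ptgs2 also held a C/EBP motif, found in 10.4% of all windows, and a CRE core, found in 19.9%, that overlaps an E-box, found in 6.79%. The AP-1 motif was found in 0 of the 8 member windows and in 7.46% of all windows. The NF-kB motif was found in 1 of the 8, that of Ptges3, and in 7.94% of all windows. The EGR motif, in the exact form GCGNGGGCG, was found in 0 of the 8 member windows and in 5.30% of all windows. Other forms of EGR site were not searched, so their absence is not shown. A match of letters is a description of these windows only.

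Cyclooxygenase transcripts were fewer with Alox5KO medium, and the decrease was in Ptgs2, the inducible enzyme. Ptgs2 (ENSRNOG00000002525, plus strand of chromosome 13, bases 67351087 to 67359335 as the table numbers them) had 19.7, 19.0 and 19.0 FPKM in WT-medium replicates 1 to 3. Its values were 3.62, 4.59 and 2.58 FPKM with Alox5KO medium. The groups did not overlap, and the coefficient of variation was 1.89% with WT medium and 27.9% with Alox5KO medium. They rested on 3508 and 736 reads per group. The log2 fold change was -2.16 (standard error 0.16, 95% interval -2.52 to -1.81, Benjamini-Hochberg adjusted p = 2.4e-05 in limma).

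Ptgs1, the constitutive cyclooxygenase on chromosome 3, had 5.86, 5.15 and 5.48 FPKM with WT medium, against 4.87, 5.92 and 5.18 with Alox5KO medium. The groups overlapped, and the 95% interval of its log2 fold change ran from -0.31 to 0.23 (Benjamini-Hochberg adjusted p = 0.85 in limma). The difference between the changes of the 2 genes was not tested. Summed over both genes, cyclooxygenase transcripts reached 24.7 ± 0.696 FPKM in the WT-medium libraries and 8.92 ± 1.42 FPKM in the others (SD, n = 3 each). Ptgs2 made up 77.1 to 78.7% of this sum in the WT-medium libraries and 33.3 to 43.6% in the Alox5KO-medium libraries, where Ptgs1 was the more abundant of the pair in all 3.

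An unannotated locus next to Ptgs2, examined after its values were seen, was lower as well. It lies on the minus strand of chromosome 13 from 67347175 to 67350880 and ends 206 bases before the start of Ptgs2. It had 9.08, 10.3 and 8.46 FPKM with WT medium, against 2.42, 2.26 and 1.62 with Alox5KO medium, without overlap, from 284 and 72 reads per group. Its log2 fold change was -1.74 (standard error 0.14, Benjamini-Hochberg adjusted p = 5.1e-05 in limma). Whether its reads come from a transcript separate from Ptgs2 was not tested, and the sources used here do not give whether counting used strand.

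Of the 3 prostaglandin E synthases, Ptges alone passed the test. Ptges (ENSRNOG00000006320, chromosome 3 from 9727408 to 9738752, minus strand) encodes the inducible membrane enzyme that works with Ptgs2. It had 211, 167 and 130 FPKM with WT medium, against 2.63, 3.05 and 3.00 with Alox5KO medium. The lowest WT-medium value was far above the highest Alox5KO-medium value, and the means were 58.6-fold apart. In reads, the libraries held 3715, 2762 and 2363 against 50, 62 and 57. The log2 fold change was -5.43 with a 95% interval of -5.80 to -5.06 (Benjamini-Hochberg adjusted p = 4.3e-07 in limma). Of the 8 tested genes it had the largest log2 fold change.

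Ptges3, a cytosolic synthase that also serves as a cochaperone of Hsp90, was abundant in every library. It had 208, 230 and 169 FPKM with WT medium, against 195, 202 and 188 with Alox5KO medium. The groups overlapped, with a 95% interval of -0.32 to 0.24 for the log2 fold change (Benjamini-Hochberg adjusted p = 0.86 in limma). The log2 fold change was -0.04, and it turned to 0.0387 with quantile normalization, to 0.0188 with TPM scaling and to 0.0568 without WT-medium replicate 2. Ptges3l1, a near copy of Ptges3 on another chromosome, had 13 reads in each group, so few reads could have been split between them there.

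Ptges2, the membrane-associated synthase first found in the Golgi, had 13.1, 13.5 and 11.3 FPKM with WT medium, against 8.93, 10.8 and 10.9 with Alox5KO medium. All 3 WT-medium values were above all Alox5KO-medium values. The log2 fold change of -0.29, with a 95% interval of -0.55 to -0.02, did not pass (Benjamini-Hochberg adjusted p = 0.13 in limma). Groups failed to overlap in this direction for 4 of the 8 tested genes, and in the other direction for 1, against 18.8% of all genes tested in each direction and 37.6% in either.

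The make-up of the synthase class followed from these values. Ptges held 40.7 to 48.8% of the summed FPKM of the 3 genes in WT-medium libraries and 1.27 to 1.49% in Alox5KO-medium libraries. Ptges3 went from 48.1 to 56.0% of the sum to 93.1 to 94.4%. Ptges2 held 3.04 to 3.63% and then 4.32 to 5.41%. The sum itself was 384 ± 64.4 and 208 ± 7.28 FPKM (SD, n = 3 per group).

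**Figure D2:**
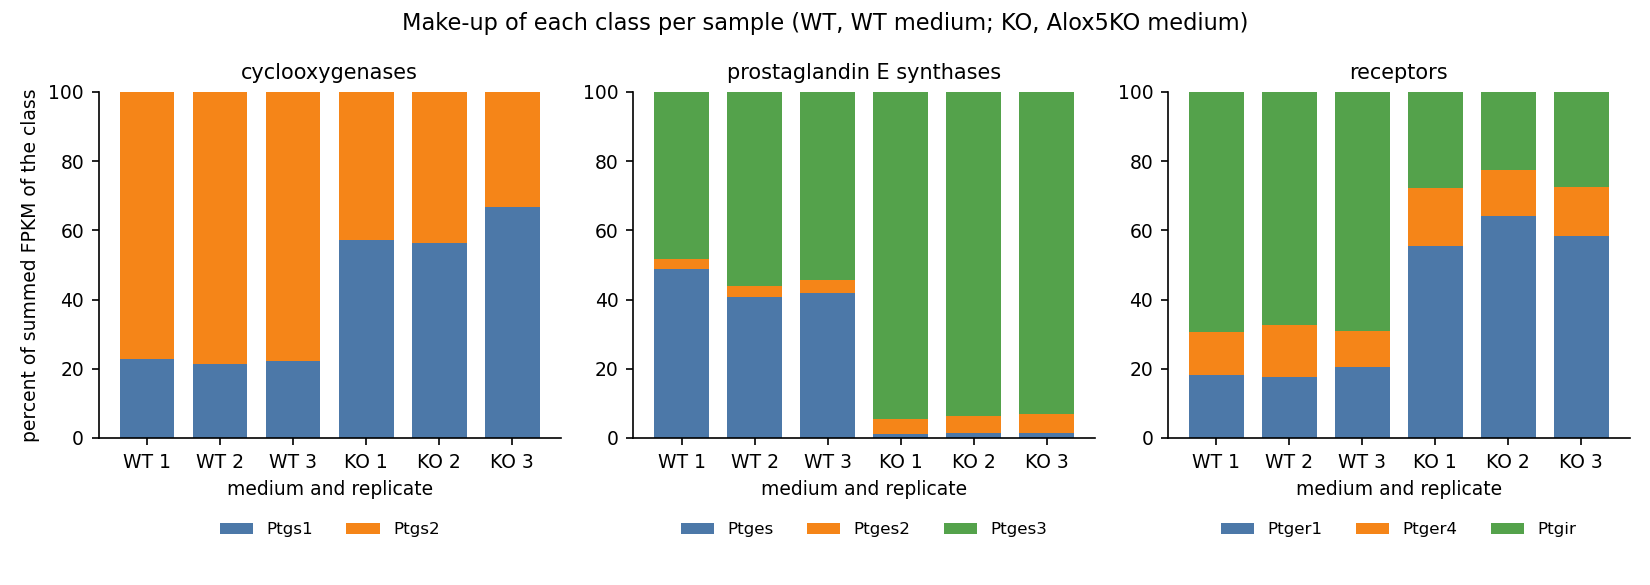
Percent of the summed FPKM of each class (vertical axis) held by each gene in every sample (horizontal axis), for cyclooxygenases, prostaglandin E synthases and receptors. Ptgs2, Ptges and Ptgir fill a smaller part of their class in each of the 3 Alox5KO-medium samples than in any WT-medium sample, with Ptges at 1.27 to 1.49%.

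The row described as rat prostacyclin synthase was also lower. It is ENSRNOG00000008245, named AABR07054614.1 in the table, on chromosome 3 from 163950777 to 163986059, and it was identified after its values were seen. Prostacyclin synthase turns prostaglandin H2 into prostacyclin, a vasodilator. The row had 247, 240 and 184 FPKM with WT medium, against 103, 110 and 96.0 with Alox5KO medium, without overlap. Its log2 fold change was -1.10 (standard error 0.13, 95% interval -1.39 to -0.81, Benjamini-Hochberg adjusted p = 4.2e-04 in limma). A second row with that description, on chromosome 11, held 7 reads with WT medium and was listed at 0 with Alox5KO medium.

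Among the receptors, that for prostacyclin was lower and the EP1 receptor was higher. Ptgir (ENSRNOG00000016756, chromosome 1 from 78833157 to 78837623, plus strand), whose product raises cAMP, had 19.96, 17.6 and 20.1 FPKM with WT medium. With Alox5KO medium it had 5.32, 6.13 and 5.97 FPKM, and the groups did not overlap. The log2 fold change was -1.57 with a 95% interval of -1.81 to -1.33 (Benjamini-Hochberg adjusted p = 1.7e-05 in limma). The row for its ligand's synthase moved the same way.

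Ptger1 (ENSRNOG00000004094, chromosome 19 from 24800072 to 24803373, plus strand) encodes EP1, the prostaglandin E2 receptor that raises calcium. It had 5.25, 4.62 and 5.97 FPKM with WT medium, against 10.7, 17.4 and 12.7 with Alox5KO medium. All Alox5KO-medium values were above all WT-medium values, from 425 and 1223 reads per group. The log2 fold change was 1.2 with a 95% interval of 0.81 to 1.58 (Benjamini-Hochberg adjusted p = 0.0013 in limma).

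Ptger4, whose product EP4 raises cAMP on binding prostaglandin E2, had 3.62, 3.92 and 3.05 FPKM with WT medium. With Alox5KO medium it had 3.27, 3.56 and 3.14 FPKM, and the groups overlapped. The 95% interval of its log2 fold change was -0.36 to 0.23 (Benjamini-Hochberg adjusted p = 0.78 in limma). Of the summed FPKM of the 3 receptors, Ptgir held 67.3 to 69.2% with WT medium and 22.7 to 27.7% with Alox5KO medium. Ptger1 went from 17.7 to 20.5% of the sum to 55.4 to 64.2%, while Ptger4 held between 10.5 and 17.0% in all 6 libraries.

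Hpgd, the dehydrogenase that inactivates prostaglandins, was near the limit of detection. It had 2, 1 and 3 reads with WT medium, or 0.0847, 0.0453 and 0.124 FPKM, and 1, 3 and 0 reads with Alox5KO medium, or 0.0393, 0.110 and 0 FPKM. A count of 0 allows up to 3 reads, which for this gene is 0.110 to 0.136 FPKM across libraries, a limit that covers counting error only. No difference was detectable at this depth.

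The order of the 9 matched genes by level changed between the media, on the FPKM scale, which is per length. With WT medium the order of mean FPKM was Ptges3, Ptges, Ptgs2, Ptgir, Ptges2, Ptgs1, Ptger1, Ptger4 and Hpgd. The ranges of neighbours overlapped for Ptges3 and Ptges, for Ptgs2 and Ptgir, and for Ptgs1 and Ptger1. With Alox5KO medium the order was Ptges3, Ptger1, Ptges2, Ptgir, Ptgs1, Ptgs2, Ptger4, Ptges and Hpgd. There the ranges of neighbours overlapped for Ptger1 and Ptges2, for Ptgir and Ptgs1, and for Ptgs2 and Ptger4. Among these 9, Ptges was thus next to the top in one medium and next to the bottom in the other. The row described as prostacyclin synthase was left out of these orders. Its mean of 224 FPKM with WT medium would rank 1st, with a range overlapping that of Ptges3. Its mean of 103 FPKM with Alox5KO medium would rank 2nd.

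Other genes of the pathway were taken from a list of 29, of which 26 were matched and 16 tested. Of these 16, 4 were lower and 1 was higher by limma with Benjamini-Hochberg adjustment, with a median log2 fold change of -0.07. Among all 12341 genes tested, 10.6% were called lower and 10% higher. Those that fell act in the release of arachidonic acid and in the uptake of prostaglandins. The secreted phospholipase Pla2g2a had 1363, 1160 and 613 FPKM with WT medium, against 31.9, 35.4 and 19.6 with Alox5KO medium, a log2 fold change of -5.09. Pla2g5, another secreted phospholipase, had 15.9, 13.1 and 6.33 against 0.315, 0.369 and 0.276 FPKM. Its log2 fold change was -3.19, or -4.99 with voom on recovered reads. The cytosolic phospholipase Pla2g4a had 14.3, 12.9 and 15.9 FPKM with WT medium, against 7.57, 6.82 and 5.65 with Alox5KO medium, and fell by 1.00 on the log2 scale.

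Slco2a1, the transporter that takes prostaglandins into cells for breakdown, had 8.46, 8.76 and 7.46 FPKM with WT medium, against 3.30, 4.78 and 2.78 with Alox5KO medium. It fell by 1.02 on the log2 scale (Benjamini-Hochberg adjusted p = 0.0025 in limma). Zadh2, also called prostaglandin reductase 3, had 2.79, 2.74 and 2.72 FPKM with WT medium, against 3.75, 4.37 and 4.27 with Alox5KO medium. Its log2 fold change was 0.45 (Benjamini-Hochberg adjusted p = 0.031 in limma). Leaving out WT-medium replicate 1, 2 or 3 or Alox5KO-medium replicate 2 or 3 ended the call, at Benjamini-Hochberg adjusted p of 0.098, 0.095, 0.059, 0.081 and 0.084 in limma.

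The other prostaglandin E2 receptors fell under the abundance filter and had few reads. They were chosen for naming after their values were seen. Ptger2, which encodes EP2, had 19, 13 and 12 reads with WT medium and 4, 6 and 6 with Alox5KO medium. Ptger3, which encodes EP3, had 9, 11 and 25 reads against 47, 37 and 37. Both sets of FPKM values were without overlap between groups. With no filter on low values, the log2 fold change of Ptger2 was -0.39 (Benjamini-Hochberg adjusted p = 0.044 in limma) and that of Ptger3 was 0.59 (Benjamini-Hochberg adjusted p = 0.071 in limma). The synthases of prostaglandin D2, Ptgds and Hpgds, had 6 reads or fewer over all libraries.

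**Figure D3:**
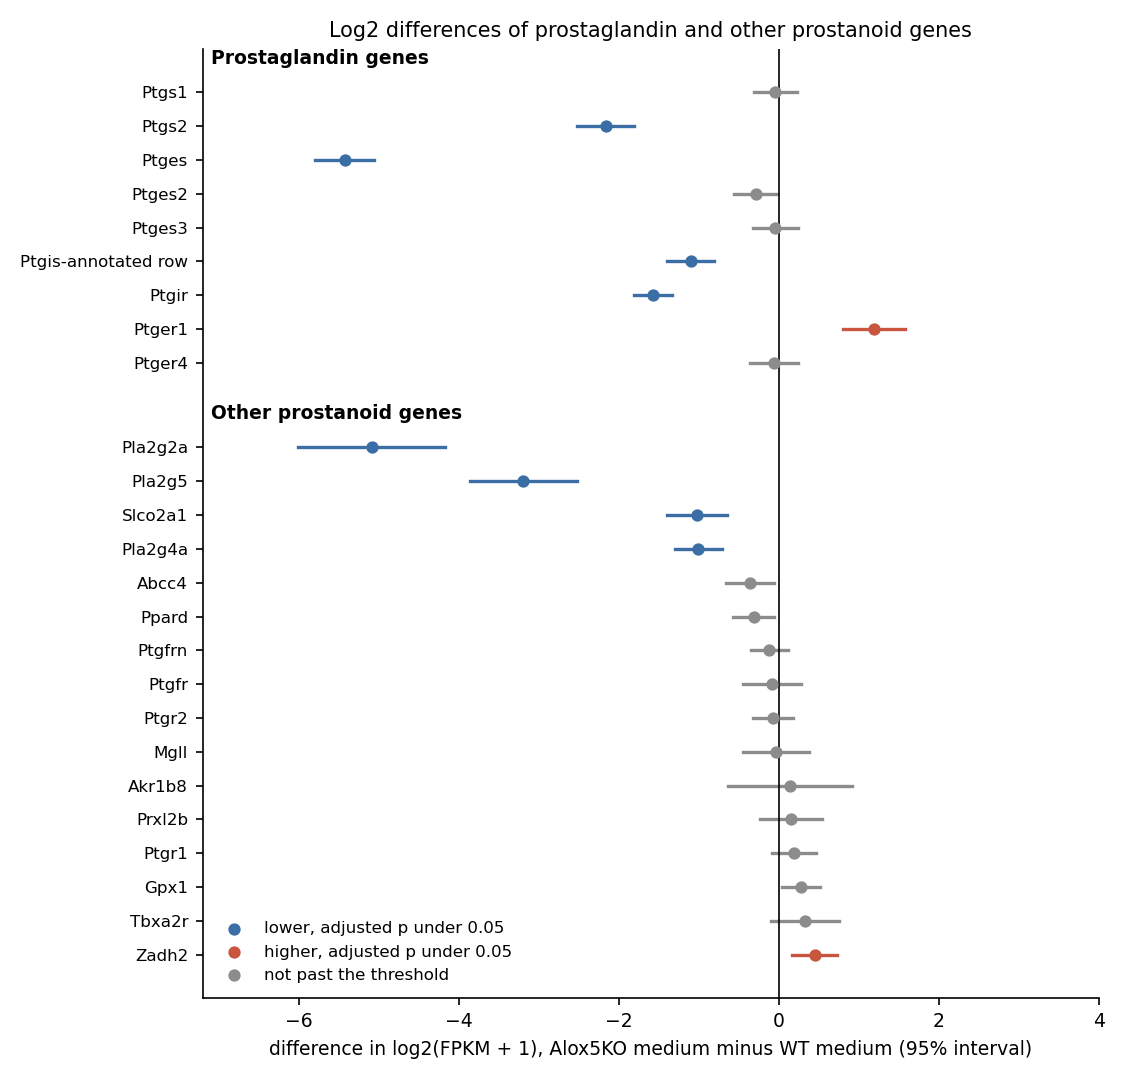
Difference in log2(FPKM + 1), Alox5KO medium minus WT medium (horizontal axis), with 95% intervals from limma, for the tested prostaglandin genes with the row described as prostacyclin synthase and for 16 other prostanoid genes. Blue points are lower and red points higher at an adjusted p under 0.05, with Ptges at -5.43 and Ptger1 at 1.2, and grey points did not pass.

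Listed regulators of Ptgs2 and Ptges include transcription factors, RNA-binding proteins and cytokine receptors, and those called went in both directions. The cytokine receptor genes Il1r1 and Tnfrsf1a did not pass, at log2 fold changes of 0.0077 and 0.12 (Benjamini-Hochberg adjusted p = 0.98 and 0.41 in limma). Nor did Elavl1 and Khsrp, which encode RNA-binding proteins (Benjamini-Hochberg adjusted p = 0.33 and 0.79 in limma). Of 20 listed regulators 19 were tested, of which 4 were lower and 3 higher by limma with Benjamini-Hochberg adjustment, with a median log2 fold change of 0.0077. That is 36.8% called, against 20.7% of all genes tested, and whether the list differs from all genes was not tested. The NF-kB subunit genes Nfkb1 and Nfkb2 fell by 0.74 and 0.92 on the log2 scale. Rela and Relb, the other listed NF-kB subunit genes, did not pass, at -0.17 and -0.16 (Benjamini-Hochberg adjusted p = 0.29 and 0.49 in limma). Cebpb, a factor that binds C/EBP motifs, fell by 1.25 (Benjamini-Hochberg adjusted p = 0.017 in limma). Leaving out WT-medium replicate 1 or 3 ended the call, at Benjamini-Hochberg adjusted p of 0.052 and 0.064 in limma. Cebpd, also listed, did not pass, at a log2 fold change of 0.27 (Benjamini-Hochberg adjusted p = 0.25 in limma). Tsc22d3, a gene induced by glucocorticoids, fell by 0.64.

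Regulators that rose were Egr1, Fos and Zfp36. Egr1, a zinc finger factor known to activate Ptges, had 5.65, 6.05 and 4.09 FPKM with WT medium, against 24.8, 24.6 and 23.9 with Alox5KO medium. Its log2 fold change was 2.04 (Benjamini-Hochberg adjusted p = 1.4e-05 in limma), opposite in sign to that of Ptges. Fos, a subunit of AP-1, rose by 2.16. Zfp36, which promotes decay of messages such as that of Ptgs2, had 12.7, 12.4 and 12.2 FPKM with WT medium, against 24.9, 21.3 and 27.9 with Alox5KO medium, a rise of 0.93.

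Genes of cAMP signalling, the route used by EP2, EP4 and the prostacyclin receptor, also divided. Of 26 listed genes 24 were tested, of which 6 were lower and 3 higher by limma with Benjamini-Hochberg adjustment, with a median log2 fold change of -0.05. That is 37.5% called, beside 20.7% of all genes tested, a difference that was not tested. The phosphodiesterase Pde4b, which breaks down cAMP, had 38.5, 29.1 and 30.2 FPKM with WT medium, against 5.14, 9.06 and 4.47 with Alox5KO medium, a fall of 2.26. Pde7a, another phosphodiesterase, had 8.61, 9.14 and 11.4 against 23.8, 21.1 and 20.1 FPKM, a rise of 1.09. The kinase subunit genes Prkacb and Prkar2b fell by 0.63 and 0.96, Pde8a by 0.48, and the arrestin genes Arrb1 and Arrb2 by 0.73 and 0.65. The adenylyl cyclase genes Adcy3 and Adcy5 rose by 0.62 and 0.72. The lower count was 3 without WT-medium replicate 1 and 3 without Alox5KO-medium replicate 1. Calls lost when a single library was left out were those of Prkar2b, Arrb1, Arrb2, Adcy3 and Adcy5, at Benjamini-Hochberg adjusted p of up to 0.092, 0.15, 0.11, 0.059 and 0.059 in limma.

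**Figure D4:**
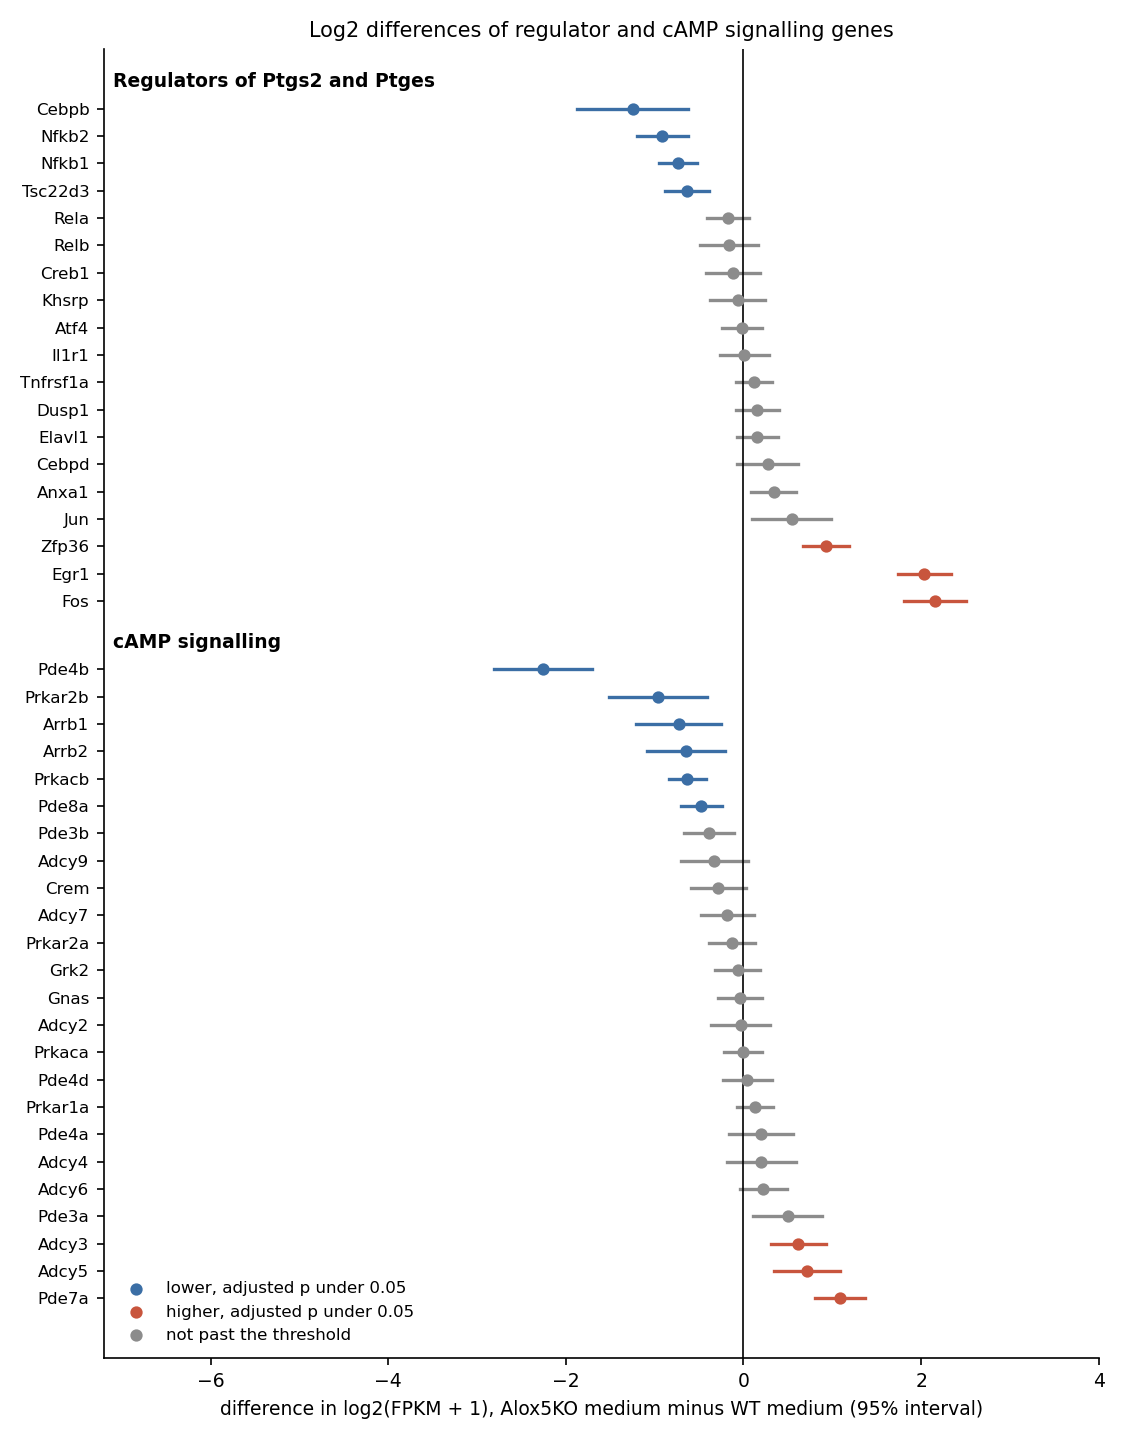
Difference in log2(FPKM + 1), Alox5KO medium minus WT medium (horizontal axis), with 95% intervals from limma, for 19 regulators of Ptgs2 and Ptges and 24 cAMP signalling genes. Blue points are lower and red points higher at an adjusted p under 0.05, with Egr1 at 2.04 and Pde4b at -2.26, and grey points did not pass.

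The genes nearest in profile were found by the root mean square difference of centred log2(FPKM + 1) values over the 6 samples. For Ptges they were Pla2g2a, Wfdc21 and Igfbp5, at distances of 0.36, 0.42 and 0.43, where the profile of Ptges itself has a root mean square of 2.72. Pla2g2a shared with Ptges a highest value in WT-medium replicate 1 and a lowest WT-medium value in replicate 3. For Ptgs2 the nearest were Rcl1, Dapk1 and Egln3, each at 0.13, beside a root mean square of 1.10. For Ptger1 they were Ncam1, Bhlhe41 and Fgl2, at 0.10, 0.11 and 0.12, beside 0.63. All 6 samples enter these distances, and with them the difference between the groups.

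Markers of cells other than heart fibroblasts and cardiomyocytes were measured in the same libraries. The 8 mast cell markers summed to 43.4 to 61.4 FPKM with WT medium and 22.3 to 32.3 with Alox5KO medium. Only 2 of these were abundant enough to be tested. Of the 2, 1 was called lower, Cpa3, at 45.4 ± 7.69 and 19.6 ± 4.19 FPKM (SD, n = 3 per group). Tpsb2, Mcpt4, Fcer1a and Ms4a2 were listed at 0 in all 6 libraries. The 7 matched macrophage and leukocyte markers summed to 31.8 to 36.1 and 23.5 to 38.3 FPKM, with Cd3e at 0. Of the 3 tested, 1 was called lower, Cd14, at 20.8 ± 0.533 and 15.5 ± 1.70 FPKM (SD, n = 3 per group). Of the 7 smooth muscle and pericyte markers 6 were tested, of which 3 were called higher (Myh11, Cspg4 and Notch3) and 2 lower (Kcnj8 and Abcc9). All 7, led by Des at 24.1 ± 11.01 and 14.4 ± 4.57 FPKM (SD, n = 3 per group), summed to 33.1 to 62.1 and 38.8 to 45.7 FPKM. The 5 matched endothelial markers, led by Tie1, summed to at most 0.230 FPKM, with Emcn at 0, and 0 of them were tested. The part of other cells in the results was not tested.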

How the data were processed

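Total RNA was isolated with TRIzol and sequenced as NEBNext Ultra libraries, per the labels' protocols. The tools named, with no order or role, are fastp, DESeq2 (1.20.0), HISAT2 (2.0.5), CASAVA (1.8) and featureCounts (1.5.0-p3), and the build named is mm10, per the submitters' processing notes. The labels give mouse, but 32883 of 33682 rows carry rat Ensembl identifiers and 0 carry mouse ones, and no source used here names a rat build. The authors deposited FPKM values, 1 column per sample, with gene length, per the file headers.

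Symbols were matched in the table, taking the most abundant row. FPKM times length, divided by the worth of 1 read in each library, was a whole number in 100% of values above 0, within 0.05, which gave reads per gene. Genes whose mean reached 1 FPKM (12341) were fitted as log2(FPKM + 1) with limma 3.58.1 in R 4.3.3 (trend, robust prior, two-sided, Benjamini-Hochberg at 0.05, no replicate block), a fit tested on simulated data. The rule for named genes took the members, the called genes of each list, the 3 nearest profiles of Ptges, Ptgs2 and Ptger1, and the most abundant marker of each list. Other genes named, such as untested receptors and synthases, Gpx1, the near copy of Ptges3 and further markers, were chosen after their values were seen. The members and lists were chosen with earlier results of these data known.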

Additional observations from a re-analysis of the deposited data

How the results depend on the processing

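The counts of 3 lower and 1 higher prostaglandin genes were the same under all 16 alternatives run. These were other pseudocounts (0.1 and 0.5), no filter and a filter at 5 FPKM, quantile, median and TPM scaling, plain eBayes, a replicate block, voom on recovered reads, and each sample left out. Over them the log2 fold change ran from -2.43 to -1.99 for Ptgs2, from -5.81 to -5.26 for Ptges, from -1.71 to -1.52 for Ptgir and from 1.02 to 1.36 for Ptger1. Ptgs1 turned to 0.0107 with TPM scaling and to 0.0115 without Alox5KO-medium replicate 1, and Ptges3 to 0.0387 with quantile normalization, 0.0188 with TPM scaling and 0.0568 without WT-medium replicate 2. With 1 sample left out they ran from -0.108 to 0.0115 and from -0.163 to 0.0568. None of these passed the test, and the cause was not tested. Over all genes, calls numbered 787 to 1228 higher and 850 to 1310 lower with 1 sample left out, the fewest without WT-medium replicate 1.

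Of the other prostanoid genes the higher calls numbered 0 with a filter at 5 FPKM, which removes Zadh2, 2 with quantile normalization and 2 with TPM scaling, where Gpx1 joined, and 0 to 1 with 1 sample left out. Higher regulators numbered 5 with voom. For the cAMP genes, lower calls numbered 3 with no filter and 3 to 6 with 1 sample left out, and higher calls numbered 1 with a filter at 5 FPKM. With no filter Prkar2b, Arrb1 and Arrb2 did not pass, at Benjamini-Hochberg adjusted p of 0.052, 0.084 and 0.095 in limma. Of the 15 alternatives in which each arrestin gene was tested, Arrb1 lost its call in 7 and Arrb2 in 10. The alternatives for regulators and cAMP genes were added after seeing the data. Same-numbered samples deviated from their group means with correlations of -0.096, 0.105 and 0.167, and differently numbered ones with -0.192 to 0.101. These values do not decide whether the numbers pair the samples. No pairing was used in the main fit because the labels do not say what a repeat number shares. With the replicate block 3 prostaglandin genes were lower and 1 higher, 1277 genes were higher and 1375 lower over all, and 0 of the other prostanoid genes were higher, with Zadh2, Cebpb and Arrb1 at Benjamini-Hochberg adjusted p of 0.058, 0.086 and 0.055 in limma.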
